A study of Mus musculus with 18 samples.

Results

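The genes described here encode the proteins that hold complement in check on cell surfaces and in plasma, together with a complement receptor of B cells. The set named Cd59a, Cd59b, Cd55, Cr1l, Cr2, C3 and Serping1, 7 genes in all. A gene was taken up where a probe set carried its symbol and no other, and 6 of the 7 were found that way among 19938 genes with a named probe set. C3 is not analysed here. Each of the 6 had 1 probe set, and 0 probe sets with several symbols named any of them. The set was put together with the genotype comparison of these tumours already known, because Cd59a was the gene past the adjusted threshold in it. Differences between genotypes in the 6 genes are therefore given as a description, with no test. Their covariation over tumours played no part in that choice.

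The samples were lymphomas taken from the spleen at end stage, from mice with the Eμ-Myc transgene. This transgene puts Myc under the enhancer of the immunoglobulin heavy chain locus, which acts in B lineage cells. It was shared by all 18 mice, on a background given as C57BL/6. The WT group held 9 tumours of Prdm11 wild-type mice and the KO group 9 tumours of Prdm11 knockout mice, 1 array and 1 mouse per tumour. Age and sex are not in the labels. Tumours were homogenised whole, so fewer cells of a type and less RNA per cell cannot be told apart in any level below. Levels are log2 RMA intensities, and differences are KO minus WT on that scale.

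Complement is a cascade of plasma proteins that marks cells for uptake and ends in a pore, the membrane attack complex. CD59, held in the membrane by a glycosylphosphatidylinositol (GPI) anchor, blocks the last step of that pore, and the mouse has a pair of genes for it. CD55 and the rodent protein Crry, encoded by Cr1l, act earlier, on the convertases that cleave the central component. Cr2 encodes CD21 and CD35, receptors for cleaved complement on mature B cells and on follicular dendritic cells. Serping1 encodes the C1 inhibitor, a secreted protease inhibitor of the classical pathway.

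Median log2 intensity per array lay between 5.14 and 5.38. WT tumour 3 stood apart, its array correlating with the rest at a median r of 0.924, where the other 17 had 0.957 to 0.976. Olfactory and vomeronasal receptor genes, 1194 in number, served as a reference for transcripts that spleen is not known to make. Their mean levels had a median of 3.44 and a 95th percentile of 5.03. All 13 measured pan-B markers had mean levels above that percentile. The probe set of Prdm11 itself ran from 4.84 to 5.66 in WT tumours, with a median of 5.34, and from 4.87 to 5.49 in KO tumours, with a median of 5.22. The groups overlapped, with a difference of -0.12 (two-sided exact permutation p = 0.311), and where it lies relative to the deletion is unknown here. This probe set therefore does not check the genotype labels.

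Cd59a and Cd59b lie next to each other on chromosome 2 in the RefSeq gene table on GRCm38.p6, with 0 measured genes between them. Prdm11 is on the same chromosome, with 44 measured genes between it and Cd59b and 45 between it and Cd59a. Serping1 is also on chromosome 2, with 273 measured genes between it and Prdm11. Cr1l and Cr2 are neighbours on chromosome 1, again with 0 measured genes between them, and Cd55 is on that chromosome too, with 511 between it and Cr1l. The 250 bases before the RefSeq start of the Cd59 pair are shown because these 2 members had the largest differences, both lower in KO tumours. They come from GRCm38.p6, plus strand, at chr2:104095551-104095800 for Cd59a and chr2:104070816-104071065 for Cd59b. Capitals mark a match to the core of the interferon-stimulated response element (ISRE), a tandem GAAA repeat.

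Cd59a: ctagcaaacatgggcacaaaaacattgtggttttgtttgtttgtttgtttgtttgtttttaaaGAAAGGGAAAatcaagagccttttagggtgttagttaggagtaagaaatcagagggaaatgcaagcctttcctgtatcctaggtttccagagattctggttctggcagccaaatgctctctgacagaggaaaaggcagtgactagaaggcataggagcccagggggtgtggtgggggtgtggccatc

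Cd59b: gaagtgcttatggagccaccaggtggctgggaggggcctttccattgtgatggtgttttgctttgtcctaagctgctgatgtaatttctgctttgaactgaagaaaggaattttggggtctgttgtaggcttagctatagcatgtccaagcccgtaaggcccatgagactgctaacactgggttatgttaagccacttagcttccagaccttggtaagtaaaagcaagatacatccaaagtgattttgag

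The longest run of bases common to both windows was 8. Both strands were searched for 4 motifs in the windows of the 5 members with an entry in the promoter table. These were the AP-1 site TGANTCA, the GATA site AGATAA, the E-box CACGTG and the ISRE core. The single match was the ISRE core of Cd59a, which overlaps no other of these motifs. Of 32851 upstream windows of the same length, 6.75% held TGANTCA, 9.99% AGATAA, 6.02% CACGTG and 2.98% the ISRE core. GC content was 44.8% before Cd59a, 45.6% before Cd59b, 64.0% before Cd55, 53.6% before Cr2 and 41.6% before Cr1l.

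Cd59a, the broadly expressed CD59 gene of the mouse, was lower in KO tumours. In WT tumours it ran from 5.78 in WT tumour 2 to 7.81 in WT tumour 3, with a median of 7.47. In KO tumours it ran from 4.12 in KO tumour 4 to 6.39 in KO tumour 9, with a median of 5.08. The groups overlapped only through WT tumour 2, which lay below KO tumours 1 and 9. The other 8 WT tumours were above every KO tumour, and 7 of 9 KO tumours were below every WT tumour. That many KO tumours below every WT tumour, or more, was seen in 42 of 19938 genes (0.211%). The mean level was 7.22 ± 0.67 (SD, n = 9) in the WT group and 5.19 ± 0.69 (SD, n = 9) in the KO group. They differed by -2.03 (SE 0.29, 95% interval -2.64 to -1.42), or a 4.08-fold lower level. Cd59a exceeded the 95th percentile of the receptor reference on its own array in 9 of 9 WT and 5 of 9 KO tumours.

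The call that brought Cd59a into view was the 1 gene of 19938 (0.00502%) below an adjusted p of 0.05 in limma. It depended on the tumours included. Without WT tumour 3, 4, 5, 6, 7 or 9, or without KO tumour 3, 5, 7 or 8, 0 genes passed, whereas Cd59a passed in the remaining 8 of 18 such fits. The difference itself moved little. Its size was greatest when WT tumour 2 was left out, at -2.21, and least when KO tumour 4 was, at -1.90.

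Cd59b, its neighbour and paralog, differed in the same direction at a dimmer signal. In WT tumours it ran from 4.72 in WT tumour 9 to 5.55 in WT tumour 8, with a median of 5.21. In KO tumours it ran from 4.10 in KO tumour 6 to 4.93 in KO tumour 9, with a median of 4.62. Of the WT tumours, 7 were above every KO tumour, and 6 of 9 KO tumours were below every WT tumour. That many or more was seen in 140 of 19938 genes (0.702%). The means were 5.23 ± 0.28 (SD, n = 9) and 4.52 ± 0.29 (SD, n = 9), a difference of -0.71 (SE 0.13, 95% interval -0.98 to -0.44). Against the receptor reference, 6 of 9 WT and 1 of 9 KO tumours lay above the 95th percentile. Probes of such similar genes can pick up each other's transcript, and that was not tested here.

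**Figure D1:**
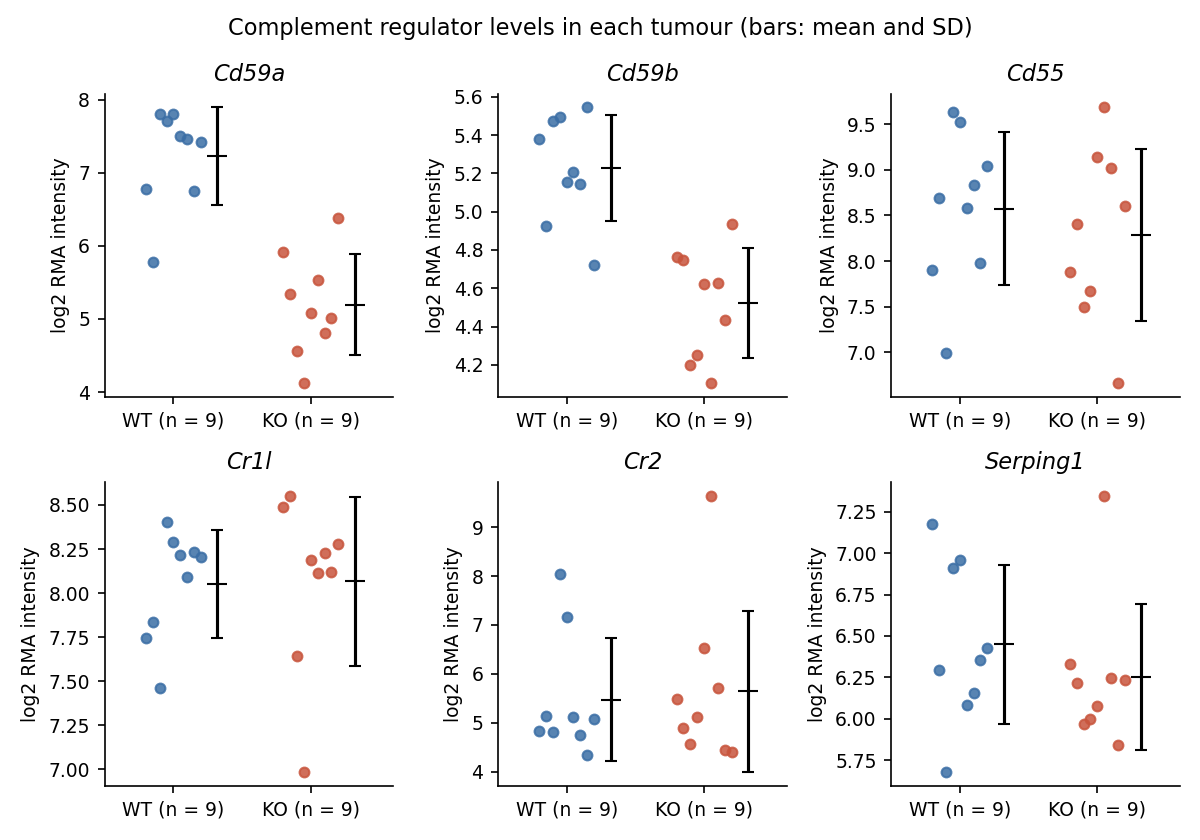
Log2 RMA intensity of each of the 6 genes in 9 WT and 9 KO tumours, 1 point per tumour in label order, with the group mean and SD beside the points. Cd59a has 8 WT tumours above every KO tumour and Cd59b has 7, while the groups of the other 4 genes overlap widely, with KO tumour 6 at the top for Cd55, Cr2 and Serping1.

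Levels of erythroid markers were also lower in the KO group, and red cells are known to carry CD59. All 12 measured erythroid markers had negative differences and all 12 were above the receptor reference, so 0 defining markers were at background. Before adjustment, 8 of the 12, or 66.7%, reached a limma p under 0.05, each lower in KO tumours. Their summed intensity ran from 1830 to 7513 in WT and from 921 to 2870 in KO tumours, and the mean log2 level was lower by a difference of -0.59. With the erythroid mean as a covariate the Cd59a difference was -2.31 (SE 0.31) and the Cd59b difference -0.65 (SE 0.15). With T cell, macrophage and erythroid means together it was -2.39 (SE 0.32) for Cd59a and -0.64 (SE 0.17) for Cd59b, and with the pan-B mean it was -2.02 (SE 0.30) and -0.67 (SE 0.13). Within genotypes Cd59a and the erythroid mean had a Pearson r of -0.382 (permutation p = 0.128, adjusted p over 78 relations = 0.252). Other lists also differed between genotypes. Of the interferon-stimulated genes 16 of 17 had negative differences and 7 were lower at an unadjusted limma p below 0.05. Their summed intensity ran from 1141 to 3149 in WT and from 901 to 1969 in KO tumours. The r of Cd59a with their mean within genotypes was 0.105 (permutation p = 0.687, adjusted p = 0.799). T cell markers had 9 of 9 negative differences, with 0 at that p. Pro-B and pre-B markers had 12 of 13 positive differences, 3 at that p, and pan-B markers 9 of 13, 6 at that p. Over all genes 59.2% had negative differences, and at that p 3.87% were lower and 2.83% higher. No gene of these lists passed the adjusted threshold of limma. The part of any of these cell types or genes in the Cd59a and Cd59b differences was not tested.

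The 3 measured genes on each side of the Cd59 pair were compared after the values had been seen. On one side were Lmo2, a haematopoietic LIM-domain factor, with a difference of -0.31 (SE 0.20), 4931422A03Rik with 0.04 (SE 0.09) and Fbxo3, a ubiquitin ligase subunit, with -0.19 (SE 0.14). On the other were A930018P22Rik with -0.12 (SE 0.11), D430041D05Rik with -0.04 (SE 0.10) and the kinase gene Hipk3 with 0.21 (SE 0.14). None of these 6 passed the adjusted threshold of limma, and 0 reached an unadjusted p below 0.05, at which 6.7% of all genes lay. With 6 genes a count of 0 is near that share.

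The remaining 4 genes had groups that overlapped widely. The intervals given with all 6 differences describe their error and are no test. Cd55, the decay-accelerating factor, ran from 6.996 in WT tumour 3 to 9.63 in WT tumour 4, with a WT median of 8.69, and from 6.66 in KO tumour 8 to 9.69 in KO tumour 6, with a KO median of 8.40. The difference was -0.29 (SE 0.38, 95% interval -1.08 to 0.50), and it was -0.49 without WT tumour 3 and -0.09 without KO tumour 8. It spanned 8.15-fold over the 18 tumours, and the groups overlapped over most of that span.

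Cr1l, the gene of the convertase inhibitor Crry, ran from 7.46 to 8.40 in WT tumours, with a median of 8.20, and from 6.99 to 8.55 in KO tumours, with a median of 8.19. WT tumour 3 and KO tumour 4 were the lowest of their groups, and the groups overlapped throughout. The difference was 0.01 (SE 0.18, 95% interval -0.36 to 0.38), and it turned to -0.06 without WT tumour 3 and rose to 0.15 without KO tumour 4.

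Cr2 had the widest range of log2 level, with its low end below the receptor reference. It ran from 4.35 in WT tumour 8 to 8.05 in WT tumour 4, with a WT median of 5.07, and from 4.41 in KO tumour 9 to 9.64 in KO tumour 6, with a KO median of 5.11. KO tumour 6, WT tumour 4 and WT tumour 5, at 7.16, stood above the rest, followed by KO tumour 5 at 6.54. The difference was 0.17 (SE 0.62, 95% interval -1.11 to 1.46), and it was -0.33 without KO tumour 6 and 0.49 without WT tumour 4. In 5 of 9 WT and 4 of 9 KO tumours Cr2 exceeded the 95th percentile of the receptor reference, so the other tumours gave no signal above it.

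Serping1, the C1 inhibitor gene, ran from 5.68 in WT tumour 3 to 7.18 in WT tumour 1, with a WT median of 6.35. In KO tumours it ran from 5.84 in KO tumour 8 to 7.35 in KO tumour 6, with a median of 6.21. The groups overlapped, and 8 of 9 KO tumours were below the WT median. The difference was -0.20 (SE 0.20, 95% interval -0.62 to 0.22), and it was -0.34 without KO tumour 6 and -0.11 without WT tumour 1.

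**Figure D2:**
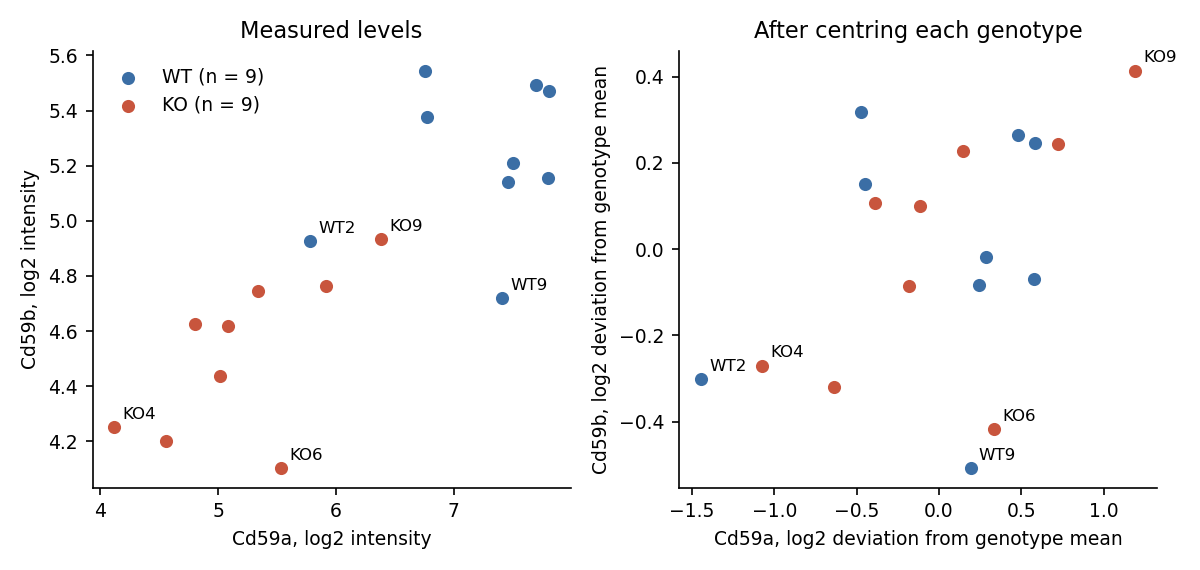
Cd59b against Cd59a, both as log2 intensity, in 9 WT and 9 KO tumours, as measured on the left and as deviations from each genotype's mean on the right. On the left most WT tumours lie above most KO tumours on both axes, with WT tumours 2 and 9 among the KO tumours on at least 1 of them, whereas on the right the points scatter with a Pearson r of 0.437.

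Other complement genes were then read from the fit over all genes, in 6 lists by role. Of 50 genes listed, 45 were measured. In limma 0 of them passed the adjusted threshold in either direction, and 2 of 45 were lower and 0 higher in KO tumours at an unadjusted p below 0.05. Over all genes the shares at that p were 3.87% lower and 2.83% higher, 6.7% in all, so the list, at 4.44% in all, was near the background. A negative difference was found in 34 of 45, or 75.6%, against 59.2% of all genes, and the median difference was -0.11 against -0.03 for all genes. Many of the 45 had mean levels below the receptor reference, which limits what these signs show. The 2 at an unadjusted p below 0.05 were the recognition chain gene C1qc and the protease gene C1ra, both of the C1 complex. The number lower at that p was 1 after median centring and 1 without KO tumour 1, 2 or 8. It was 4 without WT tumour 2 or KO tumour 5 or 6, and 6 without KO tumour 9.

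In the initiating part of the cascade 12 of 17 genes had negative differences. C1qc ran from 8.08 to 9.48 in WT tumours and from 7.36 to 8.64 in KO tumours, with a difference of -0.49 (SE 0.18). C1qb, its partner chain, differed by -0.33 (SE 0.16), whereas C1qa, the remaining chain of the same protein, differed by 0.02 (SE 0.13). C1ra and C1s2, proteases of C1, differed by -0.24 (SE 0.11) and -0.36 (SE 0.19), and the mean levels of both were below the receptor reference. The unadjusted p was 0.0145 for C1qc, 0.04 for C1ra, 0.0545 for C1qb and 0.0683 for C1s2, and the limma adjusted p ran from 0.699 to 0.769 in these 4. C1q is made largely by macrophages, and 12 of 13 measured macrophage markers had negative differences too. The summed macrophage intensity ran from 1538 to 5101 in WT and from 1293 to 4290 in KO tumours. What part that plays in the C1q values was not tested.

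Among the positive differences, the 4 of smallest p were Mbl1, a mannose-binding lectin, with 0.16 (SE 0.13), C4bp, a soluble convertase inhibitor, with 0.09 (SE 0.09), Cd55b, the second decay-accelerating factor gene, with 0.29 (SE 0.44), and Hc, which encodes component 5, with 0.05 (SE 0.09). Their limma adjusted p ran from 0.834 to 0.939, and the mean levels of all 4 were below the receptor reference. Cd55b, which sits beside Cd55 on chromosome 1, was dim in most tumours, with medians of 3.41 in WT and 3.52 in KO tumours. It reached 5.77 in WT tumour 9 and 6.67 in KO tumour 9.

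The terminal components, which form the pore that CD59 blocks, had 5 of 7 negative differences with a median of -0.08. Of these only C6 and C8g had mean levels above the olfactory and vomeronasal receptor reference. All 8 complement receptor genes had negative differences, with a median of -0.18 and a largest difference of -0.43 (SE 0.32), for C3ar1. Only Itgb2 and C1qbp among them had mean levels above that reference, so C3ar1 was below it. Soluble regulators had a median of -0.05 over 6 genes and membrane regulators of -0.06 over 5, and the alternative pathway genes Cfb and Cfp had -0.21 and -0.22. Above the reference on average were only Clu and Cpn1 of the soluble regulators and Thbd of the membrane regulators. No gene of these lists passed the adjusted threshold of limma.

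**Figure D3:**
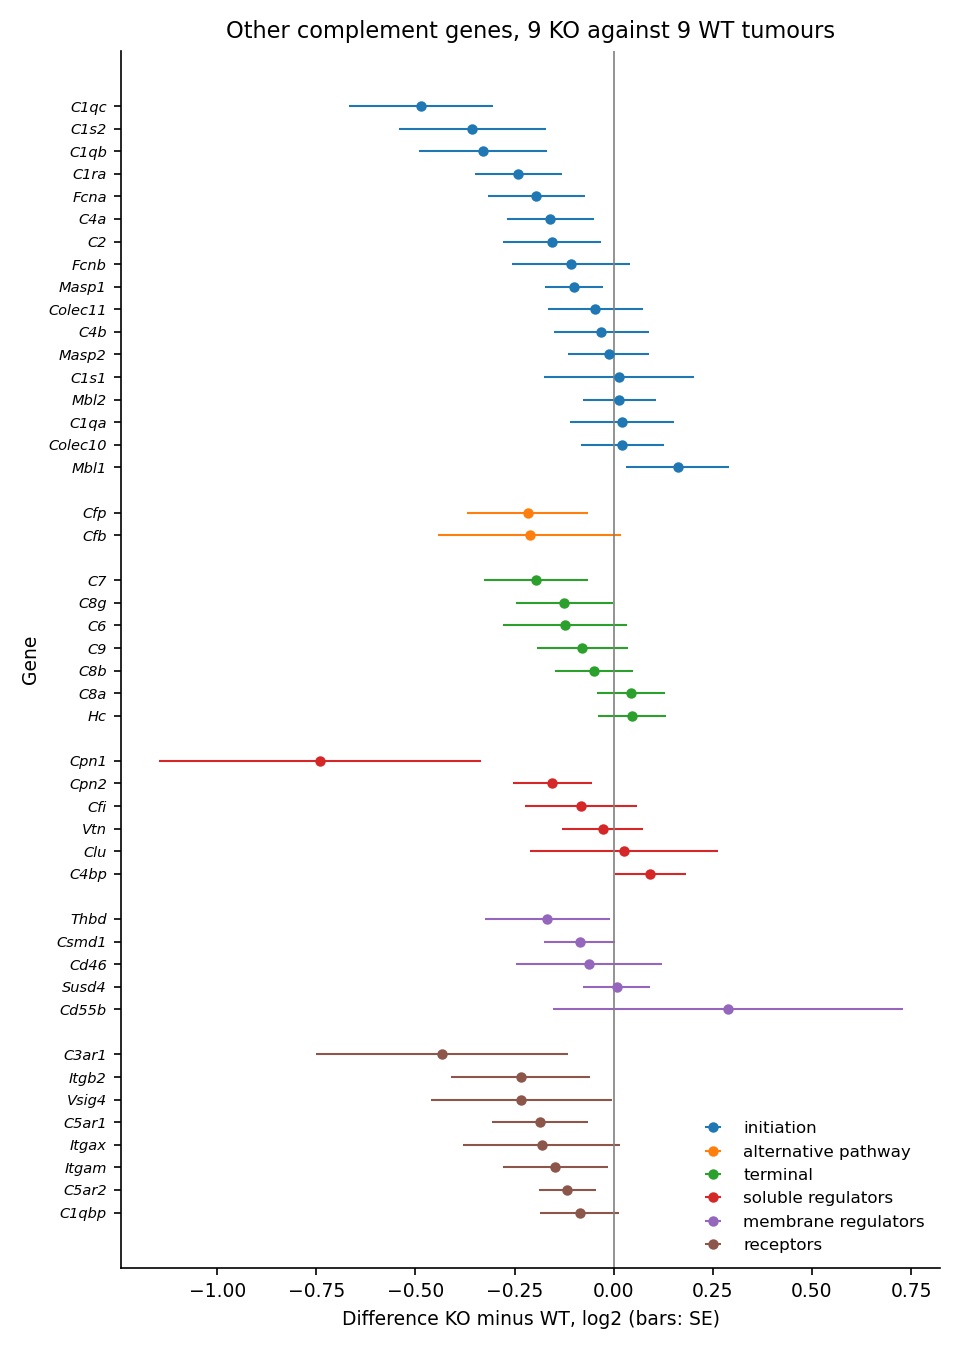
Difference KO minus WT on the log2 scale, with its SE, for 45 complement genes grouped by role, each from 9 WT and 9 KO tumours. Of the 45, 34 lie to the left of 0 and 0 passed the adjusted threshold, and many had mean levels below the receptor reference.

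The enzymes that build the GPI anchor, on which CD59 and CD55 depend to reach the membrane, were measured in 27 of 27 cases. Of these 18 had negative differences, or 66.7%, against 59.2% of all genes, and the median was -0.03, as for all genes. At an unadjusted p below 0.05, 1 was higher and 1 lower, together 7.41% against 6.7% of all genes, and 0 passed the adjusted threshold of limma. The number higher was 0 without WT tumour 3 or 4 or KO tumour 2, 2 without WT tumour 1 or KO tumour 8, and 3 without WT tumour 2. The number lower was 0 without KO tumour 8, and 2 without WT tumour 2 or KO tumour 4, 6 or 7. Gpaa1, a subunit of the transamidase that attaches the anchor, differed by -0.19 (SE 0.08), and Pign, which modifies the anchor's glycan, by 0.30 (SE 0.13). CD59 belongs to the LY6/uPAR family of small disulphide-rich surface proteins. Of 19 other measured genes of that family, 15 had negative differences, or 78.9%, with a median of -0.08. At an unadjusted p below 0.05, 1 was lower, or 5.26%, against 3.87% of all genes, and 0 passed the adjusted threshold of limma. The number lower was 0 without WT tumour 3, 6, 7 or 9 or KO tumour 3, 5, 8 or 9. With all tumours that gene was Lypd2, at -0.21 (SE 0.09), and the neutrophil antigen gene Ly6g differed by -0.52 (SE 0.37).

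How the 6 genes varied together was measured on deviations from the genotype mean, so that the genotype difference of the Cd59 pair could not enter. The 15 pairs were tested by permuting tumours within genotypes, and p-values were adjusted over the 15. Cd55, Cr2 and Serping1 moved together, and 3 pairs passed the adjusted threshold. Cd55 with Cr2 had a Pearson r of 0.725 (permutation p = 9.70e-04, adjusted p = 0.0146) and a Spearman rho of 0.703 (permutation p = 0.00256, adjusted p = 0.0384). The r was 0.723 within WT tumours (exact permutation p = 0.0321, n = 9) and 0.731 within KO tumours (exact permutation p = 0.0178, n = 9). Leaving out WT tumour 3 and KO tumour 8 gave 0.787, these being the 2 farthest from the median of Cd55.

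Cr2 with Serping1 had an r of 0.722 (permutation p = 0.00623, adjusted p = 0.0412) and a rho of 0.521 (permutation p = 0.0283, adjusted p = 0.131). Without WT tumour 4 and KO tumour 6 the r was 0.382 (permutation p = 0.211), so that this relation rested on those tumours. Cd55 with Serping1 had an r of 0.612 (permutation p = 0.00823, adjusted p = 0.0412) and a rho of 0.602 (permutation p = 0.012, adjusted p = 0.0899). Its r was 0.455 without WT tumour 3 and KO tumour 8 (permutation p = 0.088), and the relation rested on them as well. The number of pairs past the threshold was 1 without WT tumour 2, 4, 5 or 8 or KO tumour 2, 3, 4 or 8. Without KO tumour 6 it was 0, with an r of 0.676 for Cd55 and Cr2 (adjusted permutation p = 0.053), 0.496 for Cr2 and Serping1 and 0.496 for Cd55 and Serping1. Without WT tumours 4 and 5 and KO tumour 6, a choice made after the values were seen, these were 0.573, 0.092 and 0.312 over 15 tumours.

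Cd59a and Cd59b had an r of 0.815 over all 18 tumours as measured, which holds the genotype difference of both. On deviations from the genotype mean it was 0.437 (permutation p = 0.0807, adjusted p = 0.202) and the rho was 0.41 (permutation p = 0.102, adjusted p = 0.191). Within WT tumours the r was 0.219 (exact permutation p = 0.574, n = 9) and within KO tumours 0.64 (exact permutation p = 0.064, n = 9). The difference between these 2 values was not tested. Neither CD59 gene was past the threshold with Cd55, Cr2 or Serping1, and the r of those 6 pairs ran from -0.21 to 0.24. Cd59a with Cr1l came nearest, with an r of 0.546 (permutation p = 0.0241, adjusted p = 0.0903). It passed without WT tumour 3, at 0.707 (adjusted permutation p = 0.00788), and after quantile normalization, at 0.638. The r fell to 0.389 without KO tumour 4, the lowest KO tumour for both genes. Without WT tumour 2 and KO tumour 4 it was 0.343 (permutation p = 0.201). Within WT tumours it was 0.249 (exact permutation p = 0.52) and within KO tumours 0.747 (exact permutation p = 0.018), a contrast that was not tested. The neighbours Cr1l and Cr2 had an r of 0.232 (permutation p = 0.363).

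Set against the mean levels of 12 lists of cell markers and 1 of interferon-stimulated genes, the 6 genes gave 78 relations. Of these, 18 passed the adjusted threshold, all with a positive r, and 2 passed it by rank. Cr2 had 8 of the 18, Cd55 and Serping1 4 each, Cd59a and Cr1l 1 each, and Cd59b 0. The number past the threshold was 4 without WT tumour 4, 5 without WT tumour 5, 7 without KO tumour 8 and 11 without KO tumour 5. Without KO tumour 6 it was 2, Cr2 with the follicular stroma list and Serping1 with the macrophage list. The number was 26 after median centring.

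**Figure D4:**
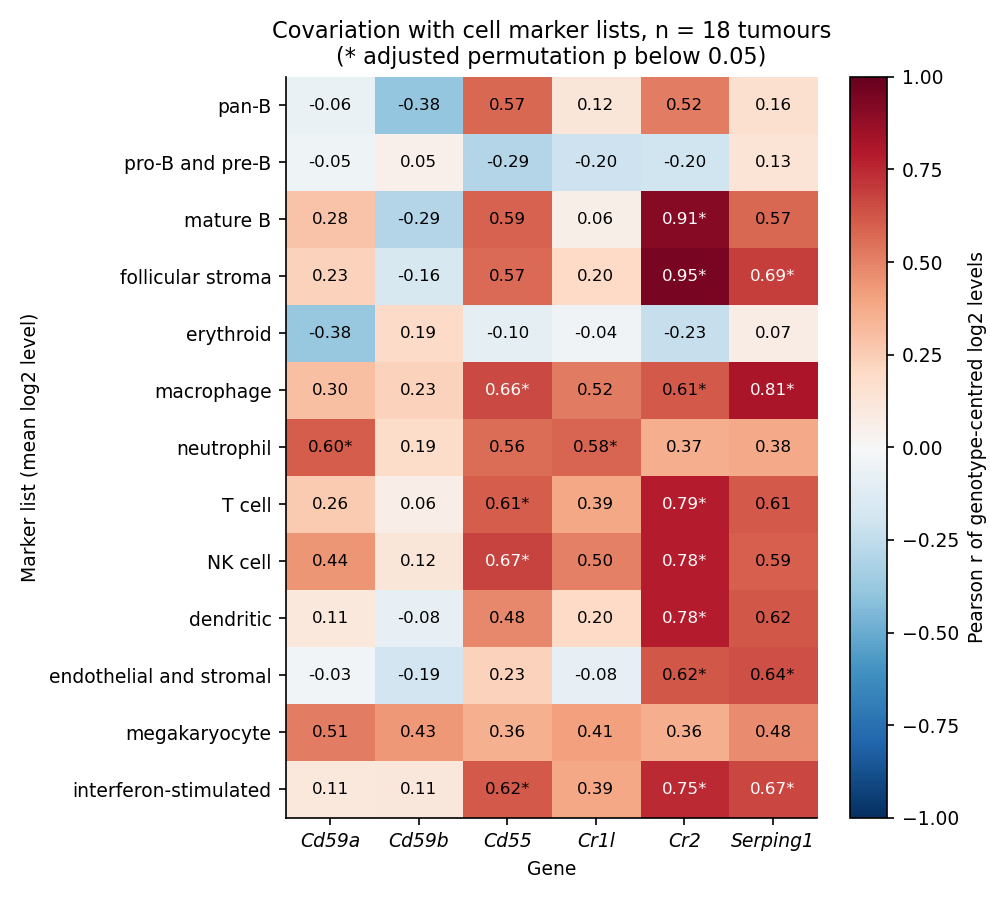
Pearson r between the genotype-centred log2 level of each gene (columns) and the genotype-centred mean of each marker list (rows) over 18 tumours, with stars for an adjusted permutation p below 0.05. The columns of Cr2, Cd55 and Serping1 hold 16 of the 18 stars, and the Cd59b column holds 0.

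Cr2 followed the follicular stroma list, genes of the cells that organise B cell follicles, with an r of 0.95 (permutation p = 7.00e-05, adjusted p = 0.00312). Its rho was lower, at 0.641 (permutation p = 0.00753, adjusted p = 0.0839), and 0.133 within WT tumours (exact permutation p = 0.744, n = 9) against an r of 0.915 there. The r was 0.809 without WT tumour 4 and KO tumour 6, and 0.60 (permutation p = 0.0575) without WT tumour 5 as well. The follicular stroma list had 5 measured genes, of which Madcam1 was below the receptor reference, and all 5 had a positive r with Cr2. Highest were Cxcl13, the chemokine that draws B cells into follicles, at 0.971, and Ccl19, a chemokine of the T cell zone, at 0.862. Cxcl13 ran from 7.13 to 9.97 in WT tumours and from 6.29 to 10.32 in KO tumours, and its highest tumours, WT tumour 4 and KO tumour 6, were those of Cr2.

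The mature B list had an r of 0.911 with Cr2 (permutation p = 4.20e-04, adjusted p = 0.00819), led by Fcer2a, the low-affinity IgE receptor, at 0.826 and Cd40 at 0.806. Its rho was 0.55 (adjusted permutation p = 0.119), and Fcer2a and Cxcr5 were below the receptor reference on average. Dendritic cell markers had an r of 0.782 with Cr2, led by Cd209a and Clec9a, T cell markers 0.788, led by Icos and Cd3g, and NK cell markers 0.784, led by Ncr1 and Klrd1. The interferon-stimulated list had 0.746, led by Ifit3 and Ddx58, the endothelial and stromal list 0.625, led by Dcn and Col3a1, and the macrophage list 0.612, led by Lyz2 and Slc40a1. Of these lists, 4 of 7 dendritic and 5 of 9 NK cell markers had mean levels above the receptor reference. So did 7 of 9 T cell, 8 of 13 endothelial and stromal, 14 of 17 interferon-stimulated and 13 of 13 macrophage genes. The leading genes Cd209a and Ncr1 were below it. With WT tumours 4 and 5 and KO tumour 6 left out the r with the mature B list was 0.25 (permutation p = 0.314), and that with the other 6 lists lay between 0.05 and 0.46. Pan-B markers had an r of 0.52 with Cr2 and pro-B and pre-B markers -0.20, both short of the threshold.

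Serping1 followed the macrophage list, with an r of 0.814 (permutation p = 8.00e-05, adjusted p = 0.00312) and a rho of 0.74 (permutation p = 0.00122, adjusted p = 0.0476). The r was 0.812 within WT tumours (exact permutation p = 0.0089, n = 9) and 0.823 within KO tumours (exact permutation p = 0.00346, n = 9). Leaving out WT tumour 3 and KO tumour 6 gave 0.676, and the r ran from 0.763 to 0.848 with any 1 tumour left out, past the threshold in all 18 cases. All 13 measured macrophage genes had a positive r with Serping1, and highest were Csf1r, the receptor for macrophage colony-stimulating factor, at 0.873 and the mannose receptor gene Mrc1 at 0.823. The follicular stroma list had an r of 0.69 with Serping1, led by Cxcl13 and Ccl19, the interferon-stimulated list 0.668, led by Oasl2 and Ifit3, and the endothelial and stromal list 0.644, led by Dcn and Pecam1. By rank none of these further lists passed the adjusted threshold. Without KO tumour 6 their r was 0.426, 0.587 and 0.419 in that order, and none passed. The follicular stroma r was 0.285 (permutation p = 0.356) without WT tumour 4 and KO tumour 6.

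**Figure D5:**
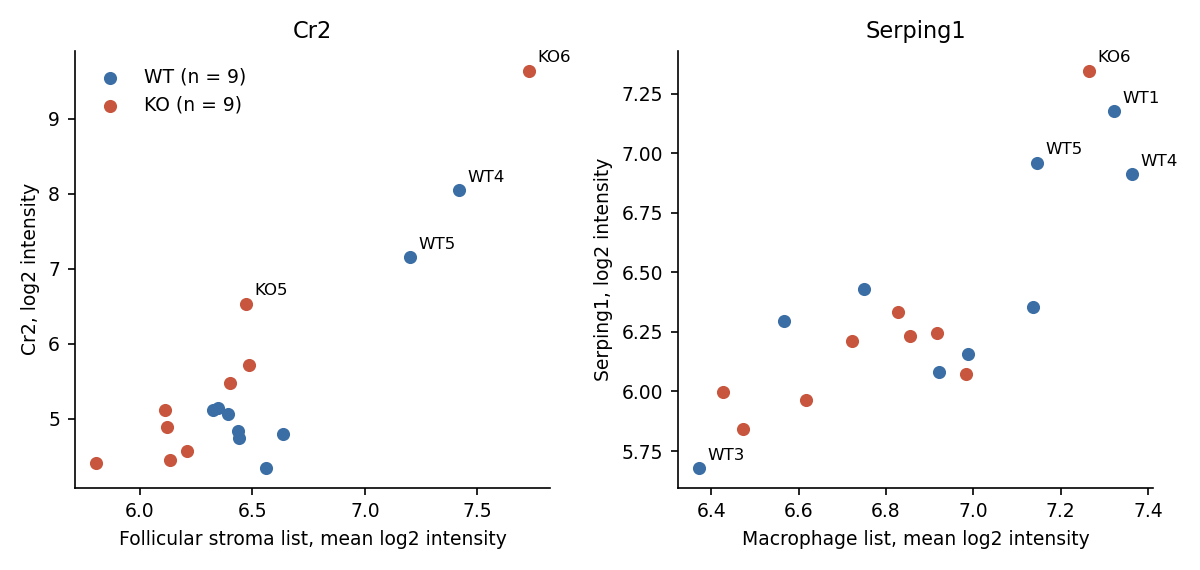
Cr2 against the mean of 5 follicular stroma genes (left) and Serping1 against the mean of 13 macrophage markers (right), as log2 intensity in 9 WT and 9 KO tumours. On the left KO tumour 6, WT tumour 4 and WT tumour 5 lie apart at the upper right, and on the right KO tumour 6 and WT tumours 1, 4 and 5 lie above the others and WT tumour 3 below them.

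Cd55 passed with 4 lists: NK cell markers at an r of 0.673, led by Ncr1 and Gzma, macrophage markers at 0.658, led by Lyz2 and Spic, interferon-stimulated genes at 0.616, led by Ifit3 and Usp18, and T cell markers at 0.606, led by Cd3d and Cd3g. The relation with NK cell markers also held by rank, with a rho of 0.756 (permutation p = 4.90e-04, adjusted p = 0.0382). Of the 9 NK cell markers, 5 had mean levels above the receptor reference, and Ncr1 was not among them. None of the 4 passed without WT tumour 4, without WT tumour 5 or without KO tumour 6. Of the 4, that with NK cell markers alone passed without WT tumour 3 or KO tumour 8. Without KO tumour 6 the r lay between 0.491 and 0.591.

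Cd59a and Cr1l passed with the neutrophil list alone. The r was 0.603 for Cd59a (permutation p = 0.00794, adjusted p = 0.0427), with a rho of 0.544 (adjusted permutation p = 0.119). All 14 neutrophil genes had a positive r with Cd59a, and highest were S100a8, a calprotectin subunit, at 0.797 and the elastase gene Elane at 0.729. The r with 1 tumour left out ran from 0.512 without WT tumour 2 to 0.757 without WT tumour 3, and it was past the threshold in 8 of 18 cases. It was not without WT tumour 2, 4, 5, 7 or 9 or KO tumour 4, 6, 7, 8 or 9. After quantile normalization it was 0.539 (adjusted permutation p = 0.0774). S100a8 was lowest in WT tumour 2 among WT tumours and in KO tumour 4 among KO tumours, the same tumours in which Cd59a was lowest. The neutrophil list differed between genotypes by -0.31, with 14 of 14 negative differences and overlapping sums, of 2652 to 18070 in WT and 3116 to 14150 in KO tumours. For Cr1l the r was 0.582 (permutation p = 0.00526, adjusted p = 0.0342), led by S100a9 and S100a8. The rho of Cr1l with the list was 0.565 (adjusted permutation p = 0.119). With 1 tumour left out its r ran from 0.513 to 0.632 and was past the threshold in 12 of 18 cases. It was not without WT tumour 3, 4 or 5 or KO tumour 4, 6 or 8.

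The genes whose levels were most like each member were ranked by Pearson r of genotype-centred levels over the 18 tumours, as a description. Closest to Cd59a were Coprs at 0.931, Gpihbp1, a GPI-anchored LY6-family protein of capillaries, at 0.867, Pdzd9 at 0.86, S100a16 at 0.85 and Rab32 at 0.846. Coprs, a histone-binding partner of the arginine methyltransferase PRMT5, had an r of 0.911 within WT and 0.951 within KO tumours. It ran from 7.13 to 7.94 in WT and from 6.85 to 7.75 in KO tumours, and its lowest tumours, WT tumour 2 and KO tumour 4, were those of Cd59a. Its genotype difference was -0.24 (SE 0.13) and that of Gpihbp1 -0.20 (SE 0.18), against -2.03 for Cd59a.

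Closest to Cd59b were Cetn4, a centrin, at 0.804, Paip2b at 0.793, the sterol enzyme gene Nsdhl at 0.735, H2bu1-ps at 0.733 and the DNA repair gene Mgmt at 0.724. Cetn4 differed between genotypes by -0.43 (SE 0.10) and Paip2b by 0.23 (SE 0.11). No gene was named for both members of the Cd59 pair.

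Closest to Cd55 were Iah1 at 0.904, Traf3ip3 at 0.878, Myl12b at 0.864, the lysosomal thioesterase gene Ppt1 at 0.858 and Tmem273 at 0.852. Cr1l was followed most closely by Rpl10a, a ribosomal protein gene, at 0.932, Ift20 at 0.93, Hax1 at 0.929, Isca2 at 0.929 and the copper chaperone gene Atox1 at 0.919. For Cr1l and its first-ranked gene, WT tumour 3 and KO tumour 4 were the lowest of their groups, and these were also the arrays with the lowest median correlation to the others, at 0.924 and 0.957.

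Closest to Cr2, after Cxcl13, were Ighm, the IgM heavy chain gene, at 0.933, the kinase gene Stk17b at 0.928, Slfn5 at 0.923 and Igfbp3 at 0.922. Ighm ran from 4.997 to 6.42 in WT and from 4.91 to 6.55 in KO tumours. Its highest tumours, WT tumour 4 and KO tumour 6, were those of Cr2, as for Cxcl13. Closest to Serping1 were the Wnt antagonist gene Sfrp1 at 0.88, Trp53inp1 at 0.874, Csf1r at 0.873, Stk39 at 0.872 and Acta2, smooth muscle actin, at 0.865. For Sfrp1, Trp53inp1 and Csf1r the lowest tumours were WT tumour 3 and KO tumour 8 and the highest KO tumour was KO tumour 6, as for Serping1.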

How the data were processed

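Total RNA of 18 tumours was measured on Affymetrix arrays. The authors deposited a linear intensity per probe set, and the submitters' processing notes name RMA. The sources used here give no version of RMA. Intensities ran from 1.63 to 14996 and were transformed to log2 with no pseudocount. The number of arrays limits the precision, as does background signal for dim probe sets. Of 153 array pairs 0 were identical.

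Of 35556 probe sets, 21789 had 1 gene symbol in the platform table, 1621 had several and 12146 had none. Each gene took its probe set of highest mean over the 18 arrays. Upstream sequences came from RefSeq's table on GRCm38.p6.

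Genotypes were compared over 19938 genes with limma 3.58.1 in R 4.3.3 (lmFit, eBayes, no covariate, Benjamini-Hochberg adjustment), and intervals of differences are its moderated 95% intervals. Correlations used 100000 permutations within genotypes, two-sided, or all 362880 pairings within a group of 9, with Benjamini-Hochberg adjustment, in Python 3.11.15 with scipy 1.17.1. The Prdm11 test enumerated 48620 splits. Both procedures were tested on simulated data.

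The members and lists were chosen with earlier results of these data known. Named genes were the members, Prdm11, the 4 complement genes of smallest p in each direction, the 2 of smallest p in the GPI and LY6 lists, the 5 genes most like each member (unannotated clones and other members passed over) and the 2 leading genes of each list past the threshold. C1qa, C3ar1, Cfb, Cfp and the genes beside the Cd59 pair were named after their values were seen. Alternatives were scaling, probe set choice, array weights, a filter on dim genes, marker covariates, blocking on replicate number and leaving out tumours. Leaving out the 3 tumours of highest Cr2 together was chosen after seeing the data.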

Additional observations from a re-analysis of the deposited data

Results flagged for a closer look

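KO tumour 6 stood far from the other KO tumours in 6 of 40 sets of 9 tumours examined, by the gap to the nearest tumour over the whole range. Chance gives such a gap in about 1 of 20 sets, and the 6 share 1 tumour. Cr2 was 9.64 there, where the other 8 KO tumours had 4.41 to 6.54, and Serping1 was 7.35 against 5.84 to 6.33. The mature B list averaged 6.89 against 5.75 to 6.02, and the follicular stroma list 7.73 against 5.81 to 6.49. The T cell list averaged 7.19 against 5.13 to 6.03, and the dendritic list 6.08 against 4.56 to 5.03. No WT tumour was set apart in this way in any of the 20 sets of WT tumours.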

How the results depend on the processing

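The differences of the 6 members kept within 1 SD of their values under every scaling, probe set choice, array weighting, covariate and left-out tumour. That margin still let those of Cr1l and Cr2 change sign. For Cr2 the difference was -0.19 with the erythroid covariate and 0.74 with T cell, macrophage and erythroid covariates. With 1 tumour left out the differences ran from -2.21 to -1.90 for Cd59a, -0.77 to -0.65 for Cd59b, -0.49 to -0.09 for Cd55, -0.06 to 0.15 for Cr1l, -0.33 to 0.49 for Cr2 and -0.34 to -0.11 for Serping1. Genes past the adjusted threshold of limma numbered 1 with either scaling, array weights or only the brighter genes, 0 over all 35556 probe sets, and 0 to 1 with 1 tumour left out. With the replicate number as a block 0 genes passed, and Cd59a differed by -2.03 (SE 0.30). These numbers do not pair the tumours: same-numbered tumours had correlations of -0.234 to 0.485, and 1 of 9 WT tumours correlated best with its own number. Past-threshold pairs of members numbered 0 to 3 with 1 tumour left out and 0 without the 3 tumours of highest Cr2. Past-threshold relations with marker lists numbered 2 to 21 with 1 tumour left out and 0 without those 3. In that setting the r of Serping1 with the follicular stroma list turned to -0.0689 and that with the macrophage list was 0.729 (permutation p = 0.00668, adjusted p = 0.356). The cause was not tested. Signals near the receptor reference limit Cd59b and Cr2. They also limit Cd59a in KO tumours, of which 5 of 9 exceeded the 95th percentile of that reference.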
